A study of Mus musculus with 6 samples.

Results

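The genes described here are 9 enzymes and partner proteins of prostaglandin and leukotriene synthesis: *Ptgs1*, *Ptgs2*, *Ptgds*, *Hpgds*, *Ptges*, *Tbxas1*, *Alox5*, *Alox5ap* and *Ltc4s*. They were taken by symbol from the 31053 genes listed for the cortical libraries and the 27998 listed for the hippocampal ones, and all 9 were found under the same identifier in both. The single-cell RNA sequencing (scRNA-seq) data come from wild-type female C57Bl/6J mice with no treatment. Preparation 1 is cerebral cortex at 3 weeks of age and preparation 3 is hippocampus at 5 weeks, each pooled from 3 mice into 1 suspension and run as 3 technical replicates, so that the 6 libraries hold 1 biological sample per region. Region, age, preparation and the gene annotation used for counting therefore cannot be told apart, no test was possible, and spreads and intervals below cover technical and counting error only. The question asked of the data was how the steps of synthesis were divided between microglia, macrophages, fibroblasts, endothelium and glia.

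Prostanoids and leukotrienes are lipid mediators made from arachidonic acid that is released from membranes. A cyclooxygenase, the product of *Ptgs1* or *Ptgs2*, turns it into an unstable intermediate, from which terminal synthases make prostaglandin D (*Hpgds*, *Ptgds*), prostaglandin E (*Ptges*) or thromboxane (*Tbxas1*). In the other branch, 5-lipoxygenase (*Alox5*) works with its activating protein (*Alox5ap*) to make leukotriene A, which leukotriene C synthase (*Ltc4s*) joins to glutathione. The steps need not occur in the same cell, because the intermediates can be passed between neighbouring cells.

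Libraries held 4894 to 6121 barcodes and 39662203 to 50024850 unique molecular identifiers (UMIs, counted RNA molecules). After filtering, 13320 cortical and 14210 hippocampal cells remained and were sorted into classes by marker genes. Of them, 71 cortical (0.533%) and 749 hippocampal cells (5.27%) carried a barcode also found in another library of the same preparation, and 558 of these were among the 825 epithelial-like cells. Microglia-like cells were the largest class, with 6175 and 6098 cells, followed by 3076 and 2151 endothelial-like and 2670 and 1960 astrocyte-like cells. Macrophage-like cells numbered 122 and 147, fibroblast-like cells 77 and 50, and oligodendrocyte-like cells 34 and 1130. Monocyte-like cells (46) were named in the cortex alone, and neutrophil-like (32), ependymal-like (116) and epithelial-like cells (825) in the hippocampus alone. Levels are given as CPM (counts-per-million), the UMIs of a gene relative to all UMIs summed over the cells of a class. At this depth a count of 0 allows up to 0.0856 and 0.0720 CPM in microglia-like cells, but up to 3.66 and 3.84 CPM in macrophage-like cells and 43.8 CPM in neutrophil-like cells.

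Among the 9 genes, *Ptgs1*, *Hpgds*, *Tbxas1* and *Ltc4s* had their highest level in microglia-like cells in both preparations. The 250 bases before the RefSeq start of each (GRCm38.p6, strand of the gene) are shown for that reason, with GAGGAA, the core bound by PU.1, a transcription factor of myeloid cells, and its reverse complement in capitals.
Ptgs1: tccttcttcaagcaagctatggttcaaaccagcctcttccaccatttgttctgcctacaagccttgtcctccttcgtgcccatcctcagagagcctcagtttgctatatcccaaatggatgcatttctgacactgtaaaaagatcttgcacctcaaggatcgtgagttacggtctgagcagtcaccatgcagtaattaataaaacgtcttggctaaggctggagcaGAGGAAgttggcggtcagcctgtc
Hpgds: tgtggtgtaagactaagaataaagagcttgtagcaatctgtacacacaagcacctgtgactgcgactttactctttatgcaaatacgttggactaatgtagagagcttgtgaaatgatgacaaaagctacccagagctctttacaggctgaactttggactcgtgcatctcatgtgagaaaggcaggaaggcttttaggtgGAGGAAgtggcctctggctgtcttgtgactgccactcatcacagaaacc
Tbxas1: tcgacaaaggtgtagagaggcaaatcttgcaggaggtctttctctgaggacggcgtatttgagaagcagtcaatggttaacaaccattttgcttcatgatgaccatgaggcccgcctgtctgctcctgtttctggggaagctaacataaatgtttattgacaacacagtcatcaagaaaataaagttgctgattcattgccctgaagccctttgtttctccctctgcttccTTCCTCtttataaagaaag
Ltc4s: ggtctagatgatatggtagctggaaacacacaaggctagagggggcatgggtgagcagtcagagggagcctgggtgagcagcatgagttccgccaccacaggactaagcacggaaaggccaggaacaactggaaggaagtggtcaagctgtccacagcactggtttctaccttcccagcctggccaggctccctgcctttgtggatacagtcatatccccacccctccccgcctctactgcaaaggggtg
These windows are chr2:36230176-36230425 (plus strand), chr6:65144731-65144980 (minus strand), chr6:38918736-38918985 (plus strand) and chr11:50238533-50238782 (minus strand). The starts of *Hpgds*, *Tbxas1* and *Ltc4s* used by RefSeq lie inside the genes as GENCODE release M21 draws them. Their windows therefore hold bases of the GENCODE gene, that of *Tbxas1* wholly so. The GAGGAA of *Hpgds* and that of *Tbxas1* are among these bases. On both strands GAGGAA was found 1 time each in the windows of *Ptgs1*, *Hpgds* and *Tbxas1* and 0 times in that of *Ltc4s*. It was also found 1 time each before *Ptgs2*, *Ptges* and *Alox5*, whose levels were not highest in microglia-like cells, and 0 times before *Ptgds*. Of these, *Ptgs2* and *Alox5* had their highest level in other myeloid classes. Of 27025 windows of this length, 23.1% held it. Of TATAAA, found in 12.966% of windows, *Tbxas1* held a single stretch that reads as the motif on either strand and the other windows none, and of GGGCGG, found in 32.9%, *Ptgs2* and *Alox5* held 1 copy and *Ptges* 2. TGACGTCA (1.62% of windows) and CACGTG (6.05%) were in none of the 8 windows matched. These are matches of letters and were not tested as sites.

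As the map of levels by class shows, the genes fell into a myeloid group (*Ptgs1*, *Hpgds*, *Tbxas1*, *Alox5*, *Alox5ap*, *Ltc4s*) and a pair led by fibroblast-like cells (*Ptgds*, *Ptges*). *Ptgs2* had its highest level in a small myeloid class, macrophage-like cells in the cortex (64.7 CPM) and neutrophil-like cells in the hippocampus (29.2 CPM, 2 UMIs), while most of its UMIs were in endothelial-like cells. A gene was called restricted when its leading class was at least 4-fold above the next, with 5 CPM added to both. In the cortex 3 of the 9 genes were restricted to 1 class (*Ptgs1* to microglia-like, *Ptgs2* to macrophage-like and *Ptgds* to fibroblast-like cells), against 8.11% of 13396 genes with at least 100 UMIs. In the hippocampus 1 of 9 was (*Ptgs1*), against 7.67% of 14161 genes. With classes joined into compartments such as myeloid, endothelial or glial, 8 of 9 were restricted in the cortex, all but *Ptges*, against 11.0% of genes. In the hippocampus 5 of 9 were (*Ptgs1*, *Hpgds*, *Tbxas1*, *Alox5*, *Alox5ap*), against 11.1%. The call of *Ptgs2* in the cortex was lost with either other scaling, and *Ptgs1* and *Alox5ap* dropped from the hippocampal compartment calls without replicate 2. All 9 genes reached 100 UMIs over the named classes in the cortex, and all but *Ptgs2* (94 UMIs) in the hippocampus. Among classes named in both preparations, the same class led for 7 of 9, against 62.1% of 12924 genes, with *Ptgs2* and *Alox5ap* the exceptions. For *Alox5* this was macrophage-like cells, in the cortex by only 15.9 against 13.1 CPM in microglia-like cells.

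**Figure D1:**
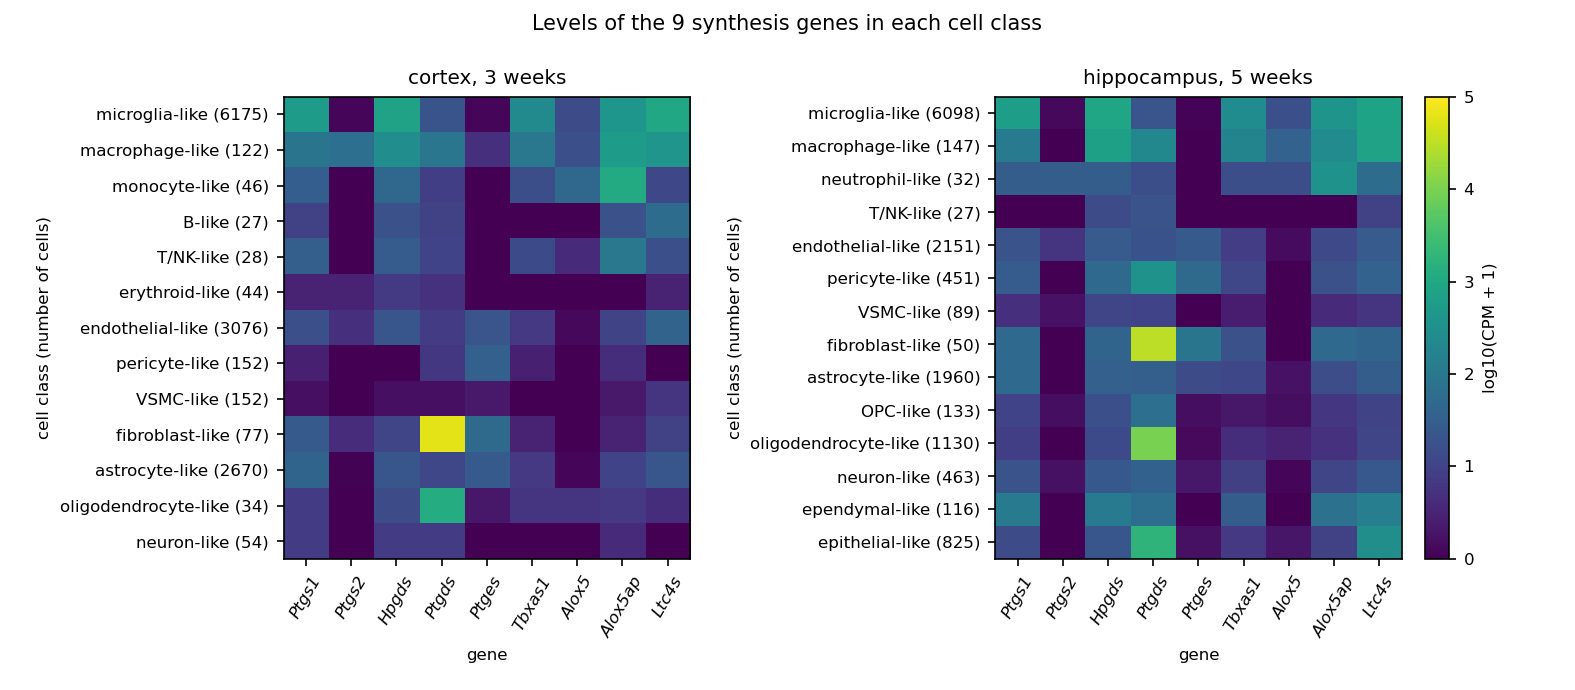
Colour gives log10(CPM + 1) of each of the 9 genes (columns) in each cell class (rows, with the number of cells), for the cortex at 3 weeks (left) and the hippocampus at 5 weeks (right). *Ptgs1*, *Hpgds*, *Tbxas1* and *Ltc4s* peak in microglia-like cells, for example *Ptgs1* at 554 and 622 CPM, and *Ptgds* in fibroblast-like cells at 61205 and 32420 CPM.

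*Ptgs1*, the constitutive cyclooxygenase, lies at chr2:36230426-36252272 on the plus strand (GRCm38). In microglia-like cells its level was 549, 549 and 565 CPM in the 3 cortical replicates and 637, 609 and 623 CPM in the hippocampal ones. All hippocampal replicates lay above all cortical ones, and the ratio of the pooled levels was 1.12. These cells held 92.4% of the 21034 *Ptgs1* UMIs of the cortex and 94.0% of the 27564 of the hippocampus. Macrophage-like cells came next in the cortex with 34.4, 123 and 61.8 CPM, and in the hippocampus they had 129, 107 and 112 CPM. The pooled microglial level was 6.44-fold above the next class in the cortex and 5.06-fold above it in the hippocampus, where the next class was ependymal-like cells (119 CPM, 25 UMIs). In those ependymal-like cells *Ptgs1* stood at 19.1% of the microglial level, while the 9 microglia markers stood at 8.95% to 19.3% of theirs. With every cell thinned to 1000 UMIs, a *Ptgs1* UMI was found in 41.9% and 45.6% of microglia-like cells and in 1.13% of cortical endothelial-like cells. The median depths of these cortical cells before thinning were 5472 and 6656 UMIs.

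Astrocyte-like cells had 36.7, 38.0 and 42.9 CPM of *Ptgs1* in the cortex and 52.6, 50.5 and 48.3 CPM in the hippocampus. In these cells *Ptgs1* stood at 7.05% and 8.11% of its microglial level, where the 9 microglia markers had medians of 2.48% and 4.00% and ranges of 2.27% to 12.4% and 3.69% to 8.62%. The values were therefore within the range of the markers but above their median. In astrocyte-like cells without a single UMI of those markers, *Ptgs1* was at 29.6 CPM (220 UMIs in 1510 of 2670 cells) and 30.8 CPM (135 UMIs in 843 of 1960 cells). Endothelial-like cells chosen the same way had 2.27 CPM (27 UMIs, 1809 cells) and 1.77 CPM (10 UMIs, 926 cells). *Hpgds* and *Ltc4s* in the marker-free astrocyte-like cells were at 2.82 and 1.34 CPM in the cortex and 3.42 and 3.65 CPM in the hippocampus. Of the myeloid genes compared in this way, *Ptgs1* alone was above 5 CPM in marker-free astrocyte-like cells. The marker-free cells were shallower than the class as a whole, with medians of 4634 against 6375 UMIs in the cortex and 5203 against 6680 in the hippocampus.

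**Figure D2:**
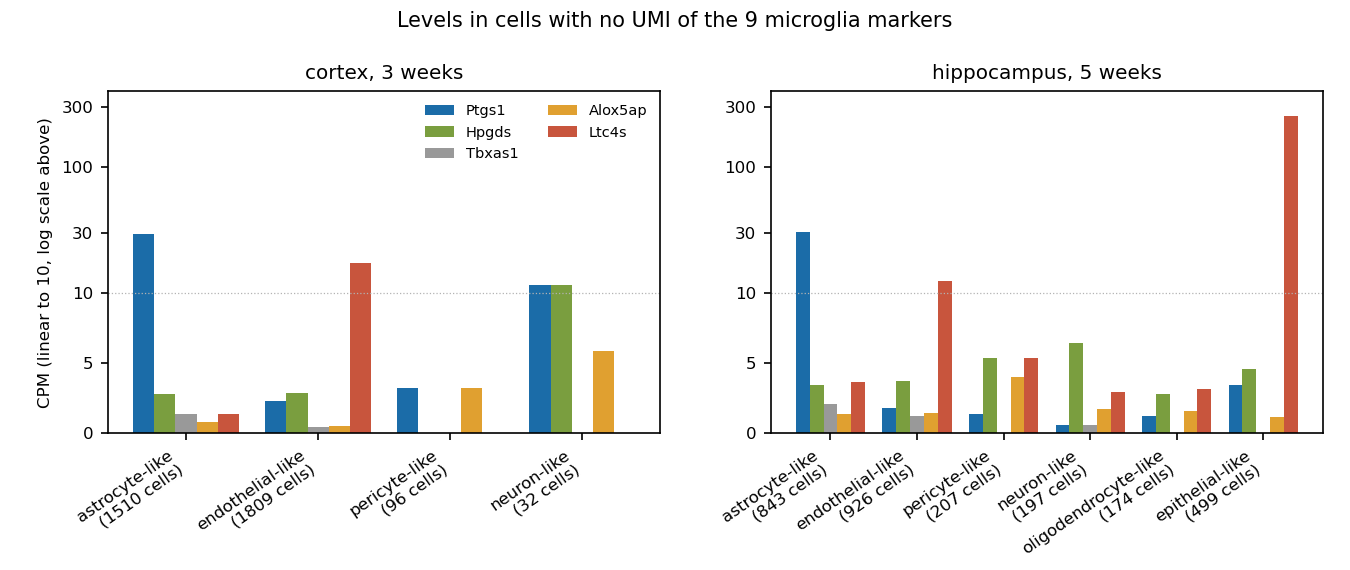
Bars give the CPM of 5 myeloid genes in cells of other classes that held no UMI of the 9 microglia markers, on an axis that is linear to 10 and logarithmic above, for each preparation. *Ptgs1* stands out in astrocyte-like cells (29.6 and 30.8 CPM) and *Ltc4s* in hippocampal epithelial-like cells (253 CPM).

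*Ptgs2*, the inducible cyclooxygenase (chr1:150100031-150108227, plus strand), was scarce, with 171 UMIs in the kept cortical cells and 116 in the hippocampal ones. Microglia-like cells held 6 and 12 of them, or 0.171 and 0.288 CPM. Endothelial-like cells held 101 (59.1%) and 74 (63.8%), with 3.68, 4.34 and 3.92 CPM in the cortex and 4.85, 4.83 and 4.07 CPM in the hippocampus. The replicates of the preparations overlapped. The leading class by level in the cortex was macrophage-like cells, at 73.7, 36.5 and 96.5 CPM, while those of the hippocampus held 0 UMIs. The cortical value rested on 53 UMIs in 9 of 122 cells. Of these 9 cells, 6 held at least 10 UMIs of *S100a8*, a neutrophil gene, together with no UMI of a macrophage marker, and they carried 35 of the 53 UMIs. One of the 6 also held 172 UMIs of microglia markers. Another 2 cells, with 6 and 11 UMIs of *Ptgs2*, had 771 and 685 UMIs of major histocompatibility complex class II genes and also held *Ccr2*. The remaining cell, with 1 UMI, held *Mrc1* and *Pf4*, which mark brain border macrophages. Without the 10 macrophage-like cells that held at least 10 *S100a8* UMIs, the level was 23.1 CPM (18 UMIs in 3 of 112 cells). *Ptgs2* was then no longer called restricted to 1 class. The 32 neutrophil-like cells of the hippocampus held 2 UMIs, or 29.2 CPM with an exact Poisson interval of 3.54 to 106.

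Within the endothelium the *Ptgs2* UMIs were mostly in venous cells. Few cells held them, 61 of 3076 endothelial-like cells in the cortex and 39 of 2151 in the hippocampus, with up to 7 and 11 UMIs in a single cell. The 961 venous cells of the cortex had 8.78, 8.46 and 9.01 CPM (76 of the 101 UMIs), and the 582 of the hippocampus had 9.88, 12.3 and 12.7 CPM (59 of the 74). Of the arterial subclusters of the cortex, the larger had 0.528 CPM (3 UMIs, 867 cells) and the smaller 4.57 CPM (9 UMIs, 190 cells), the latter with replicates at 1.46, 10.51 and 1.62 CPM. The larger arterial subcluster of the hippocampus had 2.71 CPM (12 UMIs, 534 cells), with replicates at 6.69, 1.93 and 0 CPM. In the largest hippocampal subcluster without a segment name there were 0 UMIs in 585 cells, which allows up to 0.841 CPM. Neither venous subcluster met the rule for a marker of microglia-like cells. Further *Ptgs2* UMIs were in barcodes that the upper limit of 6000 genes removed. Doublets were not called among these barcodes, here or for the genes below. These held 96 UMIs in 200 barcodes of the cortex, 35.8% of all its *Ptgs2* UMIs, and 203 UMIs in 376 barcodes of the hippocampus, 63.6% of all. Among them, the barcodes with endothelial markers were at 12.2 CPM (92 UMIs, 171 barcodes) and 35.6 CPM (200 UMIs, 126 barcodes), the latter at 55.6, 20.6 and 22.2 CPM in the 3 replicates.

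*Hpgds*, the hematopoietic prostaglandin D synthase (chr6:65117293-65144908, minus strand), followed *Ptgs1* in microglia-like cells, at 747, 776 and 758 CPM in the cortex and 932, 927 and 929 CPM in the hippocampus. The replicates did not overlap and the pooled ratio was 1.22. Unlike *Ptgs1*, it was nearly as high in the macrophage-like cells of the hippocampus, at 651, 725 and 743 CPM, while those of the cortex had 167, 314 and 317 CPM. Microglia markers in these macrophage-like cells stood at a median of 5.50% (range 3.39% to 30.4%) of their microglial level in the cortex and 12.5% (4.54% to 70.7%) in the hippocampus, and *Hpgds* stood at 36.6% and 75.9%. Pericyte-like cells held 0 UMIs in the cortex, which allows up to 5.42 CPM, and 49.4 CPM in the hippocampus. The latter came from 97 UMIs in 23 of 451 cells, of which 10 cells held 85.6%, and it was 12.1 CPM (21 UMIs) without called doublets. *Ptgs1* (27.5 CPM) and *Ltc4s* (36.6 CPM) in these cells were at 4.602 and 7.48 CPM without them. Endothelial-like cells had 21.2 and 26.2 CPM and astrocyte-like cells 20.7 and 33.1 CPM. In both classes this was 2.72% to 3.56% of the microglial level, near the marker medians of 2.48% to 4.00%, and without called doublets it was 8.78 and 6.97 CPM in endothelial-like and 8.24 and 7.14 CPM in astrocyte-like cells.

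*Ptgds*, the lipocalin-type prostaglandin D synthase (chr2:25466709-25470046, minus strand), was divided quite differently. Fibroblast-like cells had 122900, 17565 and 50792 CPM in the cortex and 18913, 51777 and 18780 CPM in the hippocampus, so that the replicates spread widely and overlapped between preparations. A few cells decided these values, since 10 cells held 75.4% and 84.9% of the UMIs of the class. The cortical fibroblast-like cells split into a cluster of 57 cells led by *Ptgds*, *Dcn* and *Col1a1* at 82612 CPM and a cluster of 20 cells led by *Mgp* at 13210 CPM. Oligodendrocyte-like cells were second, with 1535, 1340 and 538 CPM in the cortex and 8477, 10174 and 10512 CPM in the hippocampus. This was a ratio of 7.93, with all hippocampal replicates above the cortical ones. The cortical value rests on 34 cells, of which 10 held 95.6% of the 1073 *Ptgds* UMIs, and 6 of the 34 held *Pdgfra*, a gene of precursors. White matter had been cut away from both tissues as far as possible. Because of their number, oligodendrocyte-like cells held 91.2% of the 256789 hippocampal UMIs, whereas fibroblast-like cells held 96.1% of the 58012 cortical ones. Epithelial-like cells of the hippocampus had 1835, 1473 and 1906 CPM. Their median depth was 875 UMIs, and 507 of the 825 cells held under 1000. Whether RNA of oligodendrocyte-like cells added to this level was not tested. The pericyte-like level of 345 CPM in the hippocampus came from 1 cell with 642 of 678 UMIs and was 16.7 CPM without called doublets. Microglia-like cells were at 19.3 and 19.4 CPM, and in the cortex 526 of their 676 UMIs were in 10 cells.

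*Ptges*, the inducible prostaglandin E synthase (chr2:30889471-30929863, minus strand), was the one gene with no compartment 4-fold above the next in either preparation. Fibroblast-like cells had the highest pooled level, 51.6 CPM (interval 37.9 to 68.6) in the cortex and 86.1 CPM (60.6 to 119) in the hippocampus. Pericyte-like cells followed with 45.7, 34.4 and 20.3 CPM in the cortex, a spread that overlapped both fibroblast-like and astrocyte-like cells, and with 49.0, 54.4 and 50.7 CPM in the hippocampus. Endothelial-like cells had 19.5, 18.8 and 21.2 CPM and 25.4, 23.6 and 24.8 CPM, and they held 44.2% and 48.8% of the UMIs. Astrocyte-like cells had 24.9, 22.3 and 26.7 CPM in the cortex and 12.2, 14.0 and 12.7 CPM in the hippocampus, without overlap and with a ratio of 0.526. The order of endothelial-like and astrocyte-like cells was thus opposite in the preparations. Microglia-like cells held 6 UMIs in the cortex and 4 in the hippocampus, or 0.171 and 0.0960 CPM. *Ptges* was therefore nearly missing from the class in which *Ptgs1* was highest. This holds for *Ptges* only. *Ptges2* (1554 and 2039 UMIs) and *Ptges3* (11837 and 19409 UMIs), among the other prostanoid synthases, were restricted to no class or compartment.

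*Tbxas1*, thromboxane A synthase (chr6:38875404-39084585, plus strand), had 234, 252 and 245 CPM in microglia-like cells of the cortex and 278, 268 and 276 CPM in those of the hippocampus. Macrophage-like cells had 78.6, 104 and 108 CPM and 170, 183 and 201 CPM. In both classes the hippocampal replicates lay above the cortical ones, by pooled ratios of 1.12 and 1.85. The macrophage-like classes were not made up alike. That of the cortex included a cluster of 62 cells led by class II genes, whereas a hippocampal cluster of 43 cells led by such genes was left unnamed. Microglia-like cells held 94.4% of the UMIs in either preparation. Endothelial-like and astrocyte-like cells lay between 5.63 and 11.1 CPM, which was 2.31% to 4.07% of the microglial level, close to the microglia markers there.

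*Alox5*, 5-lipoxygenase (chr6:116410077-116461178, minus strand), was low in microglia-like cells, at 13.77, 15.04 and 10.497 CPM in the cortex and 15.318, 14.96 and 15.957 CPM in the hippocampus, although their number gave them 90.6% and 83.2% of the UMIs. The monocyte-like cells of the cortex had the highest pooled level, 44.9 CPM (interval 23.2 to 78.5, 12 UMIs). Macrophage-like cells had 24.6, 16.8 and 7.72 CPM in the cortex, which overlapped the microglia-like cells, and 40.4, 25.4 and 50.3 CPM in the hippocampus, which did not. Without the 10 cortical macrophage-like cells with at least 10 *S100a8* UMIs, the pooled level was 12.8 CPM (10 UMIs). This was below the 13.1 CPM of microglia-like cells.

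A second site of *Alox5* was a small part of the oligodendrocyte lineage in the hippocampus. A cluster of 26 oligodendrocyte-like cells with high *Mbp* (12220 CPM) and *Enpp6* (1354 CPM), a gene of oligodendrocytes that are just forming myelin, had 55.3, 71.1 and 65.7 CPM of *Alox5*. Of these cells 15 of 26 (57.7%) held 44 UMIs, against 6 of 1075 (0.558%) in the cluster of mature oligodendrocyte-like cells, with median depths of 28634 and 21259 UMIs. The mature cells were at 0.256 CPM. The precursor-like clusters had 0 UMIs in 77 cells and 1 UMI in 56 cells, and an unnamed cluster of 71 cells with *Enpp6* at 1359 CPM had 8.86 CPM (12 UMIs). In the 26 cells *Alox5ap* was at 2.86 CPM (2 UMIs), *C1qa*, a microglial gene, at 10.0 CPM, and *Ltc4s* had no UMI. The cluster had 2 called doublets. In the cortex the oligodendrocyte-like cluster had 4.55 CPM (4 UMIs in 34 cells), and an unnamed cluster of 32 cells with *Enpp6* at 1542 CPM held 1 *Alox5* UMI. Barcodes over the limit of 6000 genes that carried oligodendrocyte markers in the hippocampus held 57 *Alox5* UMIs in 19 of 91 barcodes, or 12.9 CPM. The cluster of 26 cells was singled out after its values were seen.

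**Figure D3:**
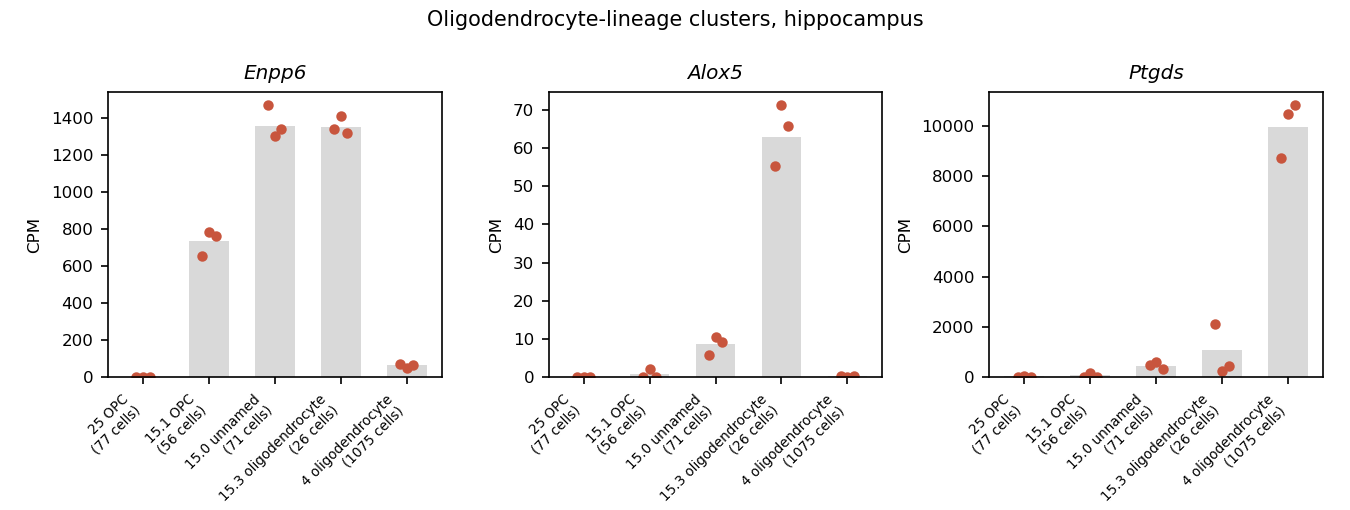
Bars give the pooled CPM and points the 3 technical replicates of *Enpp6*, *Alox5* and *Ptgds* in 5 clusters of the oligodendrocyte lineage of the hippocampus, from precursor-like (left) to mature cells (right). *Alox5* is at 62.9 CPM in the cluster of 26 cells and at 0.256 CPM in the mature cells, where *Ptgds* is highest at 9943 CPM.

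*Alox5ap*, the activating protein that presents arachidonic acid to 5-lipoxygenase (chr5:149264767-149288153, plus strand), was found across myeloid cells. Monocyte-like cells of the cortex had 1176, 1312 and 925 CPM, above all replicates of the other classes. Macrophage-like cells of the cortex had 722, 480 and 560 CPM and microglia-like cells 404, 421 and 429 CPM, again without overlap. In the hippocampus the order was opposite, with 259, 211 and 330 CPM in macrophage-like and 387, 376 and 397 CPM in microglia-like cells. Microglia-like cells held 90.6% and 92.5% of the UMIs. Neutrophil-like cells of the hippocampus had 351 CPM, but 12 of the 24 UMIs were in 1 cell. This class was mixed, since 13 of its 32 cells held at least 10 *S100a8* UMIs and *Cd74* and *Cd79a* were also among its leading genes. An unnamed cluster of 43 hippocampal cells led by *Cd74* and *H2-Eb1*, with *Ccr2* also among its leading genes, had 864, 529 and 601 CPM. In the cortex, cells led by the same class II genes were part of the macrophage-like class (the cluster of 62 cells, at 529 CPM), and the other 60 macrophage-like cells had 725 CPM. These 60 included cells rich in *S100a8* and without *Pf4* or *Mrc1*. The 10 macrophage-like cells with at least 10 *S100a8* UMIs had 1355 CPM (55 UMIs). The remaining 112 were at 524 CPM, with replicates at 679, 438 and 517 CPM. In the hippocampus the macrophage-like clusters, led by *Pf4*, *Lyz2* and *Mrc1*, were at 245 CPM (94 cells) and 310 CPM (53 cells).

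*Ltc4s*, leukotriene C synthase (chr11:50236461-50238616, minus strand), was at 893, 965 and 1070 CPM in microglia-like cells of the cortex and at 822, 779 and 793 CPM in those of the hippocampus. It was the one myeloid gene besides *Alox5ap* that was lower in the hippocampal microglia-like cells (ratio 0.817). In macrophage-like cells the direction was opposite, with 275, 460 and 440 CPM in the cortex and 805, 742 and 670 CPM in the hippocampus. Over the alternatives described below, these levels ranged from 345 to 758 CPM in the cortex and from 492 to 789 CPM in the hippocampus, so that the ranges overlapped. The cells led by class II genes were in the cortical class only. Monocyte-like cells, where *Alox5* and *Alox5ap* were high, had 3 *Ltc4s* UMIs (11.2 CPM). Outside the myeloid cells, epithelial-like cells of the hippocampus had 332, 237 and 295 CPM. This was 36.9% of the microglial level, where the microglia markers stood at 1.48% to 2.81%. In the 499 epithelial-like cells without any microglia marker UMI it was 253 CPM (219 UMIs), while *Ptgs1* and *Hpgds* were at 3.46 and 4.62 CPM there. The level was 295 CPM in the 267 cells whose barcode was in 1 library only and 287 CPM in the 558 with shared barcodes. Of the 80 barcodes over 6000 genes with epithelial markers, 79 held *Ltc4s*, at 348 CPM. In the cortex no epithelial-like class was named.

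Venous endothelial cells also held *Ltc4s*, at 31.4, 32.8 and 32.1 CPM in the cortex and 18.6, 13.9 and 21.4 CPM in the hippocampus. The arterial and unnamed subclusters of at least 100 cells with fewer than 5 markers of another class were at 6.60 to 12.5 CPM in the cortex and 7.85 to 9.33 CPM in the hippocampus. In endothelial-like cells without a microglia marker UMI, *Ltc4s* was at 17.2 CPM (205 UMIs) and 12.4 CPM (70 UMIs), compared with 2.27 and 1.77 CPM for *Ptgs1*. *Ptges* was at 23.8 CPM in venous cells of the cortex and at 20.4 and 8.12 CPM in its arterial subclusters. In the hippocampus it was at 31.3 CPM in venous cells and 16.5 CPM in the larger arterial subcluster. As the plot by segment shows, the venous replicates of *Ltc4s* in the cortex lay above those of every other subcluster shown, while for *Ptgs2* 1 replicate of the small arterial subcluster lay above them.

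**Figure D4:**
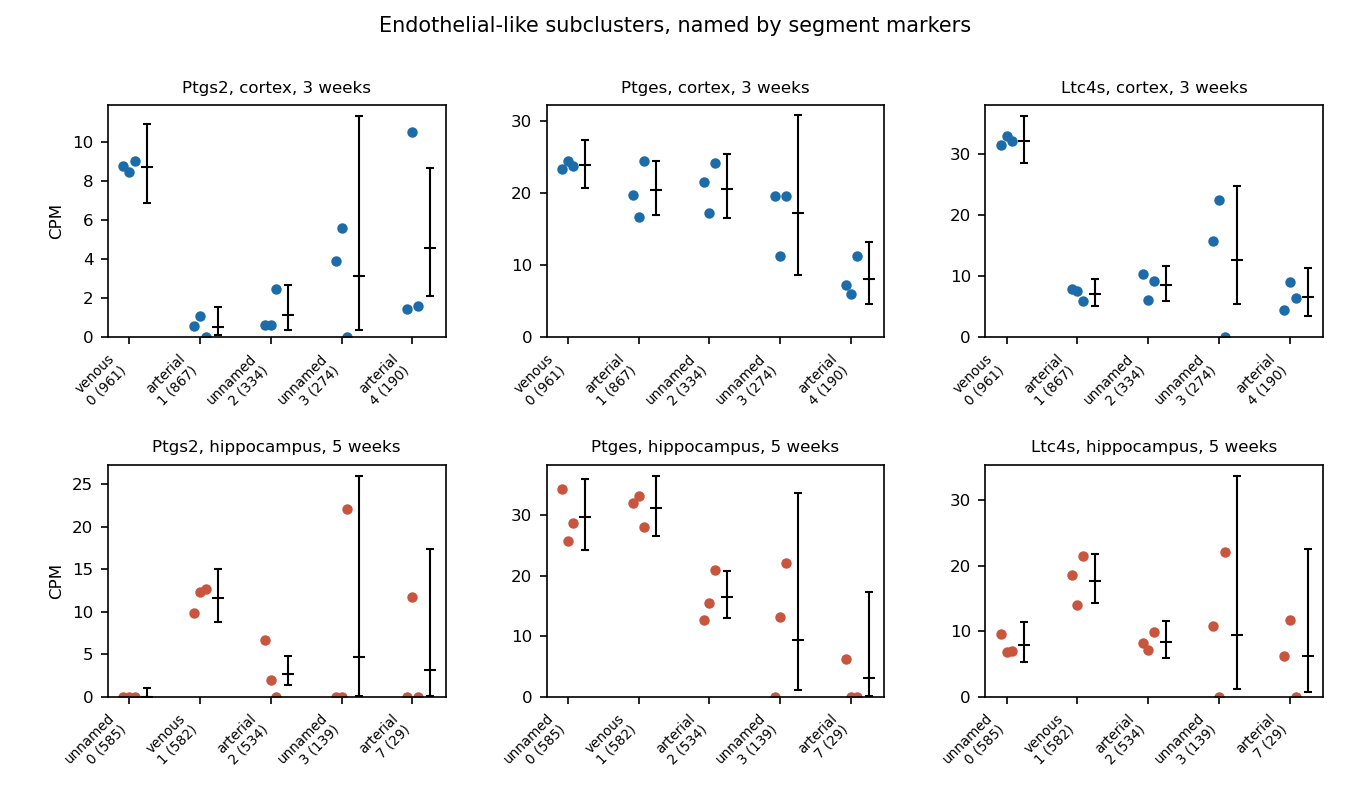
Points give the CPM of *Ptgs2*, *Ptges* and *Ltc4s* in the 3 technical replicates of each endothelial-like subcluster with fewer than 5 markers of another class (number of cells in brackets), and dashes the pooled value with its 95% exact Poisson interval. Venous cells have the highest pooled level of *Ptgs2* (8.74 and 11.6 CPM) and *Ltc4s* (32.1 and 17.7 CPM).

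Between the preparations, 0 of 9 genes differed 2-fold in microglia-like cells, against 1.35% of 11152 genes. In endothelial-like cells 0 of 9 did, against 1.90% of 10942. These shares are of genes with at least 100 UMIs in the class over both preparations. In microglia-like cells *Ptgs2* (6 and 12 UMIs) and *Ptges* (6 and 4 UMIs) did not reach that. At such levels, with 5 CPM added, neither could be called. In endothelial-like cells *Alox5* (7 and 6 UMIs) did not reach it either. *Ptgds* was there at 6.26 and 16.9 CPM (ratio 2.70), without overlap of the replicates, but 1.94-fold with 5 CPM added. In astrocyte-like cells, where *Ptgs2* and *Alox5* fell short of 100 UMIs, 1 of 9 differed 2-fold, against 2.94% of 10928. This was *Ptgds*, at 10.1, 11.2 and 10.3 CPM in the cortex and 32.5, 28.9 and 34.0 CPM in the hippocampus, where oligodendrocyte-like cells, high in *Ptgds*, numbered 1130 rather than 34. Their part in the difference was not tested. In the microglia-like cells of the hippocampus *Ptgs1*, *Hpgds* and *Tbxas1* were higher and *Alox5ap* and *Ltc4s* lower than in those of the cortex, each without overlap of the replicates, with ratios of 0.817 to 1.22. The replicates of *Alox5* overlapped. Macrophage-like cells differed more, as the plot by replicate shows. In these, 4 of 9 genes differed 2-fold (*Ptgs2*, *Ptgds*, *Hpgds*, *Alox5ap*), against 13.6% of 2303 genes with at least 100 UMIs. *Ptgs2*, *Alox5* and *Ptges* did not reach that number. At clustering resolution 1.0 the count was 1 (*Ptgs2*), and with cells classed singly by their markers it was 1 (*Ptgds*). The *Hpgds* ratio was 2.53 and the *Alox5ap* ratio 0.448, without overlap of the replicates, while the replicates of *Ptgds* (ratio 2.33) overlapped and *Ptgs2* had 53 UMIs against 0. In the cortex *Hpgds* was at 295 CPM in the cluster of 62 cells led by class II genes and at 204 CPM in the cluster of 60 cells led by *Pf4*. The latter included cells rich in *S100a8* and without *Pf4*. The 10 macrophage-like cells with at least 10 *S100a8* UMIs held 5 *Hpgds* UMIs, and the other 112 were at 287 CPM. Both hippocampal clusters were led by *Pf4*, with *Hpgds* at 755 CPM in 94 cells and 371 CPM in 53 cells.

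**Figure D5:**
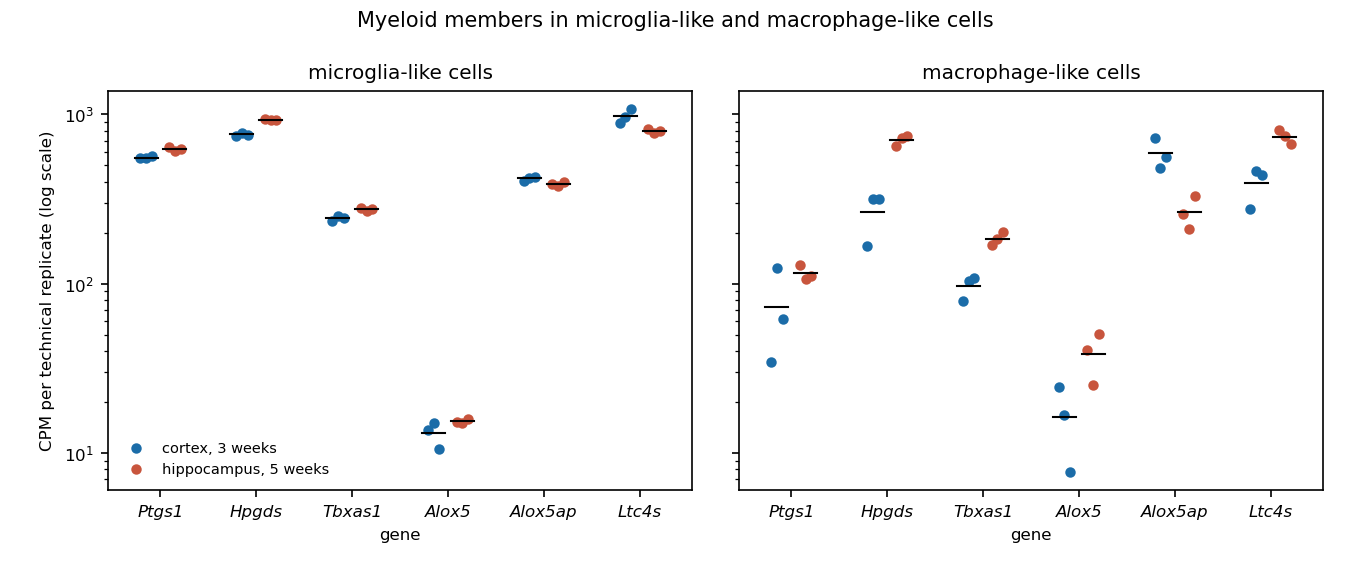
Points give the CPM of 6 myeloid genes in each technical replicate of microglia-like (left) and macrophage-like cells (right) on a log axis, with the mean of the 3 replicates as a line. In microglia-like cells the preparations lie close together (ratios of 0.817 to 1.22), while in macrophage-like cells *Hpgds* is higher and *Alox5ap* lower in the hippocampus.

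Among the microglia-like clusters of the cortex, 1 of 9 genes differed 2-fold from the other microglia-like cells, against 2.58% of 10145 genes. In the hippocampus 0 of 9 did, against 6.39% of 10480. These shares are of genes with at least 100 UMIs in microglia-like cells, which *Ptgs2* and *Ptges* did not reach. The gene past 2-fold was *Ptgds*, at 98.8 CPM in a cluster of 948 cells and 5.81 CPM in the others, and it rests on the few cells named above. The clusters with high chemokine genes (*Ccl4*, *Ccl3*; 699 and 684 cells) had the lowest *Ptgs1* and *Ltc4s* of the clusters with over 600 cells. *Ptgs1* was at 433 and 517 CPM there, and *Ltc4s* at 783 and 592 CPM. The hippocampal cluster of 276 cells with few UMIs per cell was lower in both genes, with *Ptgs1* at 399.5 CPM and *Ltc4s* at 561 CPM. In the clusters led by *Ccl12* (128 and 149 cells) *Ptgs1* was at 573 and 599.7 CPM and *Ltc4s* at 894 and 705 CPM. *Alox5* ranged from 9.39 to 14.5 CPM over the cortical clusters and from 8.01 to 17.6 CPM over the hippocampal ones.

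Single microglia-like cells held the steps together about as often as independent detection would give. After thinning to 1000 UMIs, *Ptgs1* and *Hpgds* were found together in 22.0% of 6100 cortical cells, where the product of their shares was 21.6%, and in 26.3% of 6016 hippocampal cells, where it was 26.7%. *Alox5ap* and *Ltc4s* were found together in 20.7% (product 20.6%) and 16.9% (product 16.3%). *Alox5* was found in 1.26% and 1.48% of thinned cells, and together with *Alox5ap* in 25 and 37 cells. At full depth *Ptgs1* and *Ptges* were found together in 4 of 6175 cortical cells and 3 of 6098 hippocampal ones.

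Over the 27 class levels of both preparations, the genes whose levels were most like each member were found by Pearson correlation of log2(CPM + 5) over 11121 genes. The levels share libraries and classes, so that the values are descriptions. *Ptgs1* was most like *P2ry12* (r = 0.963), *Siglech* and *P2ry13*, all microglial receptors. *P2ry12* and *Siglech*, like *Fcrls* below, were among the markers that named the microglia-like class. Likeness to them is therefore no independent support for a microglial lead. *Hpgds* was most like *Tbxas1* (r = 0.967), *Tbxas1* most like *Fcrls* (r = 0.968), and *Ltc4s* most like *C1qa* (r = 0.918), *C1qc* and *Hpgds*. *Alox5* was most like *C5ar1* (r = 0.949) and *Alox5ap* most like *Csf2rb* (r = 0.962), both receptors of myeloid cells. *Ptges* was most like *Itih5* (r = 0.912) and *Ptgds* most like *Apod* (r = 0.839), an apolipoprotein of fibroblasts and oligodendrocytes. *Ptgs2* had no gene above r = 0.731 (*H2-Eb1*), and it had 259 UMIs in these classes.

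The other genes of the pathway were taken from a list of 51, of which 33 reached 100 UMIs in each preparation, not the same 33. Of these, 5 were restricted to 1 class in the cortex (*Ggt5*, *Ggt1*, *Abcc4*, *Tbxa2r*, *Cysltr2*) and 6 in the hippocampus (*Pla2g5*, *Ptgis*, *Mgst2*, *Ggt1*, *Abcc4*, *Tbxa2r*), against the shares of 8.11% and 7.67% given above. To 1 compartment 11 and 10 were restricted, against 11.0% and 11.1%, and microglia-like cells led for 4 in each. *Prxl2b* was not listed under that symbol.

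Among genes that release arachidonic acid, *Pla2g4a*, the cytosolic phospholipase, led in microglia-like cells at 61.3, 59.4 and 59.3 CPM in the cortex and 72.3, 74.9 and 72.5 CPM in the hippocampus. *Mgll*, which frees arachidonic acid from 2-arachidonoylglycerol, led in astrocyte-like cells at 664 and 459 CPM. *Ptgis*, prostacyclin synthase, led in smooth muscle (VSMC-like) cells at 309 and 299 CPM. *Lta4h*, which makes leukotriene B, was spread over classes. In the cortex it led in T and natural killer (T/NK-like) cells at 127 CPM (28 cells), with 42.1 CPM in endothelial-like cells next. In the hippocampus endothelial-like cells led at 42.8 CPM, with 39.8 CPM in T/NK-like cells. Microglia-like cells had 27.8 and 24.7 CPM.

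Receptors and genes of breakdown and transport were led by different classes. *Tbxa2r*, the thromboxane receptor, was restricted to pericyte-like cells at 483, 456.5 and 310 CPM in the cortex and 425.5, 436 and 357 CPM in the hippocampus, whereas its ligand's synthase *Tbxas1* led in microglia-like cells. *Ggt5* and *Ggt1*, which cleave leukotriene C, led in pericyte-like cells as well, at 439 and 237 CPM in the cortex and 422 and 334 CPM in the hippocampus. *Cysltr2*, a receptor for cysteinyl leukotrienes, was at 176, 157 and 127 CPM in pericyte-like cells of the cortex and at 42.9, 47.0 and 46.0 CPM in those of the hippocampus. *Cysltr1*, the other such receptor, led in microglia-like cells at 111 and 123 CPM. *Hpgd*, which inactivates prostaglandins, led in monocyte-like cells of the cortex at 610 CPM (46 cells), with microglia-like cells next at 516 CPM. In the hippocampus it led in macrophage-like cells at 955 CPM, with microglia-like cells next at 596 CPM. *Abcc4*, an exporter of prostaglandins, was restricted to endothelial-like cells at 113 and 110 CPM. *Ptgdr*, a receptor for prostaglandin D, had 56 and 12 UMIs in all and led in fibroblast-like cells at 59.3 and 23.3 CPM, the class with the highest *Ptgds*.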

How the data were processed

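Single-cell suspensions of perfused brain tissue were made with dispase II, papain and DNase I and freed of myelin by Percoll, with no further enrichment, and run on the 10x platform. The authors deposited raw UMI counts per gene and barcode for each library. Cell Ranger 5.0.1 and mm10 are named in the submitters' processing notes, whereas the matrix headers give software version 3.0.1 (cortex) and 3.1.0 (hippocampus), and the gene lists share 27514 genes. The preparation numbered 2 was not analysed here. The 9 genes, the pathway list and the markers were chosen with earlier results of these data known.

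Filters kept barcodes in which 250 to 6000 genes were detected and the mitochondrial share was below 25%, 13320 of 17937 and 14210 of 15336. A limit of 15% was used only where endothelial-like cells were clustered again into subclusters. Doublets were called among kept barcodes only and numbered 503 and 590. Each preparation was integrated and clustered in Seurat 5.3.0 (R 4.3.3; 2000 variable genes without the 9 genes and the pathway list, 30 components, resolution 0.5). A cluster was named "-like" from at least 3 markers, each in at least 20% of its cells and at least 2-fold higher. Counts were summed per class of at least 20 cells and given as CPM in Python 3.11.15, with 95% exact Poisson intervals from scipy 1.17.1. Folds used 5 CPM added. Libraries are technical replicates of 1 pool of mice, so no test was made. A count of 0 allows up to 3 counts. These 3′ UMI counts do not compare levels between genes, and *Ptgs1*, *Tbxas1*, *Alox5ap* and *Ltc4s* overlap an exon of a gene on the opposite strand. Named are the 9 genes, the pathway list, the 3 genes most like each member, and markers; cluster-leading genes were added after their values were seen. Alternatives changed resolution, filters, doublets, shared barcodes, depth, scaling, class rule, added CPM and replicates.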

Additional observations from a re-analysis of the deposited data

Results flagged for a closer look

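For 6 of the genes a pair of classes stood in opposite order in the preparations. Each difference had the same sign in all 3 replicates of a preparation. Only chosen pairs of classes were compared. The rule was not run over all genes, so no share can be set beside this count. None of these differences was tested, and region, age and preparation cannot be told apart. The differences in pooled level were as follows. *Ptgs2* was 60.7 CPM higher in macrophage-like than in endothelial-like cells of the cortex, and the difference was -4.59 CPM in the hippocampus. The cortical macrophage-like value rests on 53 UMIs, of which 35 were in 6 cells with at least 10 *S100a8* UMIs. Neutrophil-like cells were named as a separate class in the hippocampus alone. *Hpgds* in endothelial-like minus pericyte-like cells was 21.2 CPM in the cortex and -23.2 CPM in the hippocampus. The hippocampal pericyte-like value rests on 97 UMIs, 85.6% of them in 10 of 451 cells. *Ptges* in endothelial-like minus astrocyte-like cells was -4.83 CPM and 11.6 CPM, respectively. *Tbxas1* in the same pair was 0.198 CPM and -4.19 CPM. *Ltc4s* in the same pair was 16.8 CPM and -2.94 CPM. Without called doublets *Tbxas1* was at 1.76 CPM in endothelial-like and 2.04 CPM in astrocyte-like cells of the cortex and at 2.81 and 2.70 CPM in the hippocampus, so that both orders turned, and *Ltc4s* was higher in endothelial-like cells of the hippocampus too (14.5 against 7.22 CPM). *Alox5ap* in microglia-like minus macrophage-like cells was -147 CPM in the cortex and 132 CPM in the hippocampus.

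In cells outside the comparisons, *Alox5ap* was at 671 CPM in an unnamed hippocampal cluster of 43 cells led by *Cd74* and *H2-Eb1*. In the barcodes outside the filters *Ptgs2* was at 3.19 CPM in the cortex and 8.13 CPM in the hippocampus, against 1.84 and 0.993 CPM in the kept cells. No group had 4 or more samples, so single libraries were not screened as outliers.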

How the results depend on the processing

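Of 192 summary counts under planned and added alternatives, 172 stayed within 1.5 times the reported count and 20 moved. The 172 include an alternative that changed only the background, to genes with at least 1 UMI. It could not move these counts. Only numbers were compared, so a swap of genes passed as unchanged, as in the hippocampus without replicate 2 (*Ptgs2* in place of *Ptgs1*). The tally therefore does not show how stable the sets of genes were. Of 495 single levels 409 stayed within 1 SD of the replicates and 86 moved. *Ptgs2* in macrophage-like cells of the cortex ranged from 2.33 to 120.4 CPM, and the lowest value, with cells classed singly, was below the 3.63 CPM of endothelial-like cells. In neutrophil-like cells of the hippocampus it fell to 0 without shared barcodes. Between the preparations, the 1 gene past 2-fold in astrocyte-like cells became 0 when cells were classed singly by their own markers, without clusters. The 0 genes in endothelial-like cells became 1 (*Ptgds*) at resolution 1.0, with own markers, without called doublets and with 1 CPM added, and 0 to 1 with each replicate left out. The 0 genes in microglia-like cells became 1 (*Ptgds*) with own markers, a mitochondrial limit of 10% and the mean CPM per cell. In macrophage-like cells, a count added after seeing the data, 4 became 1 at resolution 1.0 and with own markers, and 4 to 6 with each replicate left out. Among the microglia-like clusters of the cortex, 1 gene became 3 at resolution 1.0 (*Ptgds*, *Hpgds*, *Alox5*) and 0 at the 10% limit. In the hippocampus, 0 became 2 at the 10% limit (*Hpgds*, *Tbxas1*) and 2 with the mean per cell (*Ptgds*, *Ptges*), and 0 to 1 with each replicate left out (*Tbxas1* without replicate 1). The 1 gene restricted to 1 class in the hippocampus became 2 (*Ptgs1*, *Ptgs2*) with own markers, the mean per cell and 1 CPM added, and 1 to 2 with each replicate left out, *Ptgs2* in place of *Ptgs1* without replicate 2 and *Ptgs1* with *Ptgds* without replicate 3. Leaving out the 10 *S100a8* cells, chosen after seeing the data, gave 2 rather than 3 genes restricted to 1 class in the cortex, 7 rather than 8 to 1 compartment and 6 rather than 7 with the same leading class. *Ptgs2* also lost the calls to 1 class and to 1 compartment in the cortex with TMM factors and with scaling without mitochondrial, haemoglobin and *Ttr* UMIs, and the call to 1 class at resolution 1.0. With own markers *Ptgs1* lost the call to 1 class and *Alox5* that to 1 compartment in the cortex. *Tbxas1* lost the latter with thinned cells and *Alox5* without replicate 3. Without replicate 2 *Ptgs1* and *Alox5ap* lost the call to 1 compartment in the hippocampus and *Ptgs2* gained it. The causes were not tested. No paired analysis was possible because the libraries are technical replicates of single preparations and no test was made. Counts limit *Ptgs2*, *Alox5* and every class of under 100 cells.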
